A study of Mus musculus with 6 samples.

Results

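The Z-disc is the plate of each cardiac sarcomere in which actin filaments of neighbouring sarcomeres and the ends of titin are anchored. It also carries proteins that can leave it or change their partners under stretch, among them muscle LIM protein and the ankyrin repeat proteins. Several of these genes are known for their response to mechanical load in the heart. The 10 genes described here were chosen as array rows whose gene name is Csrp3, Ankrd1, Ankrd2, Ankrd23, Xirp1, Xirp2, Fhl1, Fhl2, Myoz2 or Ldb3. They are 10 of 21888 genes tested and have 12 probes, 2 each for Ankrd23 and Ldb3 and 1 for each of the others.

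The arrays address how the cardiomyocyte transcriptome differs without H19, an imprinted long non-coding RNA, when the heart is under pressure load. All mice had transverse aortic constriction (TAC), in which the aorta is narrowed so that the left ventricle pumps against a raised pressure. Adult H19 knockout mice (n = 3 arrays) were compared with wild-type littermates (n = 3 arrays), and cardiomyocytes were isolated by retrograde perfusion 6 weeks after surgery. The knockout allele, the sex and the strain are not given in the sources used here, and unoperated mice were not analysed here, so a response to load itself cannot be read from these values. The labels do not say whether an array held RNA of 1 mouse, and the p-values then reflect only how far these samples spread, which may be technical. In such cell fractions, fewer cells of a type and less RNA per cell cannot be told apart.

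Levels are given as log2 of the processed intensity over the 75th percentile of the array, so 0 is that percentile and 1 unit is a doubling. Between 48.8% and 58.6% of 59305 non-control spots on an array were well above background. H19 fitted its labels: it was well above background on 3 of 3 wild-type arrays and 0 of 3 knockout arrays, at least 32.7-fold lower in the knockout (limma, adjusted p = 0.00236). All 8 cardiomyocyte markers were well above background on all 6 arrays, but so were all 8 fibroblast, 6 endothelial, 6 smooth muscle and pericyte, 6 macrophage and 3 atrial markers. Slide 1 held the first replicate of both genotypes, and slide 2 held their replicates 2 and 3. The 75th percentile of wild-type replicate 1 was the lowest, at an intensity of 774, and that of the other arrays ran from 920 to 1152.

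No difference between the genotypes passed the test for any of the 10 genes. At an adjusted p under 0.05 (limma, Benjamini-Hochberg over all genes) 0 of 10 were called, beside 0.032% of all genes. At an unadjusted p under 0.05 the count was again 0 of 10, against 7.94% of all genes. For 0 of 10 genes did the 3 arrays of one genotype lie beyond the 3 of the other, a pattern that 10.5% of all genes showed. Of the 12 probes 0 were called, beside 0.0467% of all probes. The knockout mean was above the wild-type mean for 6 of 10 genes, against 36.3% of all genes, and the median log2 difference was 0.02 for the 10 genes and -0.06 for all genes. The all-gene median varied with the dim probes and the scaling. It was -0.18 with no filter on dim probes, -0.037 for probes well above background on all 6 arrays and -0.016 with quantile normalization. The 10 genes were not compared with genes of like brightness.

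With the 75th percentile as the scale, for 9 of 10 genes the 95% interval of the difference lay within 2-fold in either direction, and for 5 of them, Csrp3, Ankrd1, Fhl2, Myoz2 and Ldb3, it lay within 1.5-fold. Ankrd2 was the gene whose interval reached past 2-fold. These limits depend on the scale: with arrays scaled to their median, 1 of the 10 intervals lay within 2-fold and 0 within 1.5-fold, and 9 of 10 included 0. The median standard error was 0.22 (log2) for the 10 genes and 0.20 for all genes.

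**Figure D1:**
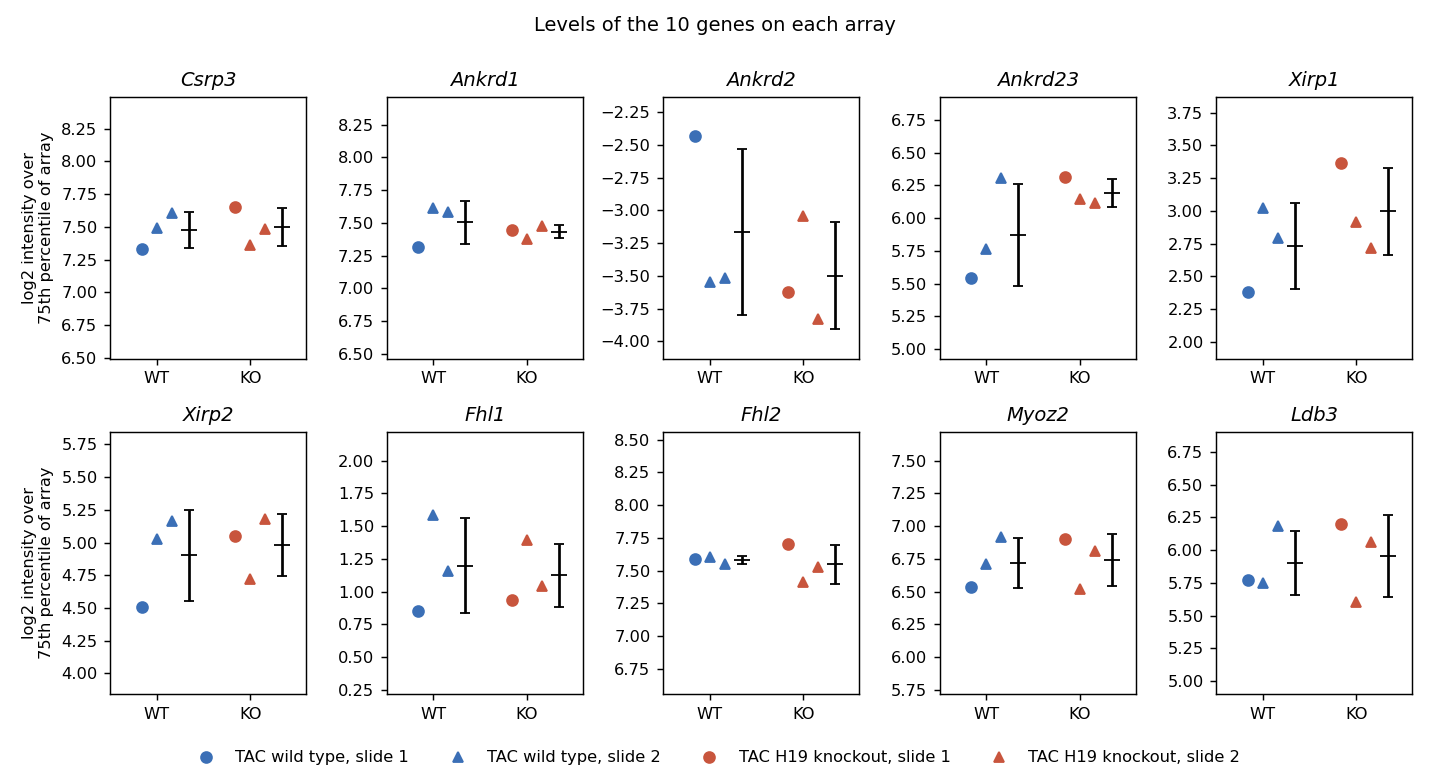
Each panel plots 1 gene, with the log2 level over the 75th percentile of the array on an axis that spans the same range in every panel. Points are single arrays (blue wild type, red knockout; circles slide 1, triangles slide 2), and bars are the mean and SD of 3 arrays; the genotypes overlap in all 10 panels, and Ankrd2 and Xirp1 spread the widest.

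Csrp3 encodes muscle LIM protein, a LIM domain protein of the Z-disc that is also found in the nucleus and whose loss causes dilated cardiomyopathy in mice. Its probe covers 60 bases of RNA but 1915 bases of genome (mm9, chr7:56086063-56087977, minus strand), so it crosses an exon junction and reads spliced RNA. Myoz2, calsarcin-1, ties calcineurin to alpha-actinin at the Z-disc, and its probe likewise crosses a junction (mm9, chr3:122709486-122716527, minus strand). Both probe sequences are shown because these genes had the closest profiles among the 10.
Csrp3 probe: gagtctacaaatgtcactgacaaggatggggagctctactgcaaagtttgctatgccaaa
Myoz2 probe: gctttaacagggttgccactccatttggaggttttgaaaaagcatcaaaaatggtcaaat

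Csrp3 read 7.33, 7.49 and 7.60 on wild-type replicates 1, 2 and 3 and 7.65, 7.36 and 7.48 on the knockout replicates. The lowest value was in wild type and the highest in the knockout, both on slide 1, and the genotypes overlapped. The difference was 0.02 (SE 0.16; 95% interval -0.35 to 0.39; adjusted p = 0.9997), a fold of 1.02 (0.785 to 1.31). Myoz2 read 6.53, 6.71 and 6.92 in wild type and 6.90, 6.52 and 6.81 in the knockout. Each genotype held 1 low array, wild-type replicate 1 and knockout replicate 2. The difference for Myoz2 was 0.02 (SE 0.18; 95% interval -0.40 to 0.44; adjusted p = 0.9997).

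The muscle ankyrin repeat proteins bind titin in the I-band and can move to the nucleus. Ankrd1, known as CARP, is the cardiac member and a widely used marker of a stressed heart. Its probe lies at chr19:36186809-36186868 (mm9, minus strand). Ankrd1 read 7.31, 7.62 and 7.58 in wild type and 7.45, 7.38 and 7.47 in the knockout. The 3 knockout values lay inside the wild-type range, with an SD of 0.05 (n = 3) beside 0.17 (n = 3) in wild type. The difference was -0.07 (SE 0.15; 95% interval -0.43 to 0.29; adjusted p = 0.9997), a fold of 0.952 (0.744 to 1.22).

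Ankrd23, known as DARP, had the smallest p of the 10 genes. Its brighter probe (mm9, chr1:36587405-36587464, minus strand) read 5.54, 5.76 and 6.30 in wild type and 6.31, 6.14 and 6.12 in the knockout. The knockout arrays were close together, and 2 of the 3 wild-type arrays lay below all of them, while wild-type replicate 3 lay among them. The difference was 0.32 (SE 0.22; 95% interval -0.20 to 0.84; adjusted p = 0.783), a fold of 1.25 (0.870 to 1.80). The other probe of Ankrd23 (mm9, chr1:36588569-36588628, minus strand) read 3.59, 3.84 and 4.45 in wild type and 4.26, 4.23 and 4.10 in the knockout. On it too, wild-type replicates 1 and 2 were the lowest arrays and wild-type replicate 3 was high, and the difference was 0.24 (SE 0.24; adjusted p = 0.908). Without wild-type replicate 3 the difference of the brighter probe was 0.54 (adjusted p = 0.148), and without wild-type replicate 1 it was 0.16.

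Ankrd2, known as ARPP, is best known from slow skeletal muscle. Its probe (mm9, chr19:42118566-42118625, plus strand) was dim, with intensities between 64.7 and 143, and was well above background on 3 wild-type and 2 knockout arrays. It read -2.43, -3.55 and -3.51 in wild type and -3.63, -3.04 and -3.83 in the knockout. Wild-type replicate 1 and knockout replicate 2 were the high arrays, and the genotypes overlapped. The difference was -0.34 (SE 0.36; 95% interval -1.18 to 0.51; adjusted p = 0.961), and its sign turned under quantile normalization (0.032), the authors' deposited values (0.036) and median scaling of the arrays (0.090). The Ankrd2 probe and the second Ankrd23 probe are shown because these related genes share the longest run of bases of any 2 probes from different genes of the 10, 11 bases, set in capitals.
Ankrd2 probe: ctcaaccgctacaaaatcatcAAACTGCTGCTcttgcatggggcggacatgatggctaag
Ankrd23 probe: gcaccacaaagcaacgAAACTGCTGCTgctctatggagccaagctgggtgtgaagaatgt

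The Xin proteins carry actin-binding Xin repeats and sit at the intercalated disc in the heart. Xirp1 (probe at mm9, chr9:119923389-119923448, minus strand) read 2.38, 3.02 and 2.79 in wild type and 3.37, 2.91 and 2.72 in the knockout. Its lowest and highest values were again the wild-type and knockout arrays of slide 1, 1.98-fold apart. The difference was 0.27 (SE 0.24; 95% interval -0.31 to 0.84; adjusted p = 0.907). It was 0.081 without knockout replicate 1, 0.089 without wild-type replicate 1, and 0.41 when wild-type replicate 2 or knockout replicate 3 was left out. Xirp2, also called myomaxin (probe at mm9, chr2:67363961-67364020, plus strand), read 4.51, 5.03 and 5.16 in wild type and 5.05, 4.72 and 5.18 in the knockout. Wild-type replicate 1 stood lowest and 4 of the other arrays lay between 5.03 and 5.18. The difference was 0.08 (SE 0.22; 95% interval -0.45 to 0.61; adjusted p = 0.9997).

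Fhl1 and Fhl2 encode proteins built of LIM domains; FHL1 takes part in a stretch-sensing complex at titin's N2B region and FHL2 binds titin and acts as a transcriptional cofactor. Fhl1 (probe at mm9, chrX:54045353-54045412, plus strand) read 0.85, 1.58 and 1.16 in wild type and 0.94, 1.40 and 1.04 in the knockout. Both slide 1 arrays were the low ones, and the knockout values lay within the wild-type range. The difference was -0.07 (SE 0.23; 95% interval -0.62 to 0.48; adjusted p = 0.9997). Fhl2 (probe at mm9, chr1:43179994-43180053, minus strand) read 7.59, 7.60 and 7.55 in wild type and 7.70, 7.41 and 7.52 in the knockout. Wild type was the tighter group here, with an SD of 0.029 (n = 3) beside 0.15 (n = 3), and its values lay within the knockout range. The difference was -0.03 (SE 0.14; 95% interval -0.38 to 0.31; adjusted p = 0.9997), with the smallest standard error of the 10 genes.

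Ldb3 encodes ZASP, also called Cypher, a PDZ and LIM domain protein that stabilises the Z-disc through alpha-actinin. Its 2 probes lie apart in the gene (mm9, chr14:35340222-35340281 and chr14:35374689-35374748, minus strand) and are listed against different transcripts. The first read 5.77, 5.75 and 6.18 in wild type and 6.20, 5.60 and 6.06 in the knockout, a difference of 0.05 (SE 0.22; 95% interval -0.46 to 0.57; adjusted p = 0.9997). The second read 5.79, 5.88 and 5.97 in wild type and 5.95, 5.88 and 5.90 in the knockout, a difference of 0.03 (SE 0.14; adjusted p = 0.9997). Both probes gave overlapping genotypes and differences above 0, and the second varied less between arrays.

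When arrays were scaled to their median instead, the whole table moved: the median difference of all genes was 0.36 and that of the 10 genes 0.45. Such a scaling shifts every gene by 1 constant, so the gap of 0.08 between them is the same by construction. Ankrd1, Ankrd2, Fhl1 and Fhl2 were above 0 under that scaling. There 0 of 10 genes were called, beside 118 of all 21888 genes (101 higher and 17 lower). With the 75th percentile the genes called were 1 higher and 6 lower.

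Most of the 10 genes had differences of opposite sign on the 2 slides. On slide 1, with 1 array of each genotype, 9 of 10 were higher in the knockout, against 48.5% of all genes. Their median difference there was 0.34, and that of all genes was -0.02. On slide 2, with 2 arrays of each genotype, 8 of 10 were lower in the knockout, against 71.5% of all genes, with a median of -0.13 for the 10 genes and -0.13 for all genes. The largest gaps between slides were those of Ankrd2 (-1.19 on slide 1 and 0.09 on slide 2) and Xirp1 (0.98 and -0.09). Ankrd23 was higher in the knockout on both, by 0.77 on slide 1 and 0.10 on slide 2. In a limma fit with a slide by genotype term, chosen after these values were seen, 0 of 10 genes were called, as were 0% of all genes after adjustment. At an unadjusted p under 0.05 that term gave 1 of the 10, Xirp1 (adjusted p = 0.595), against 8.15% of all genes.

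**Figure D2:**
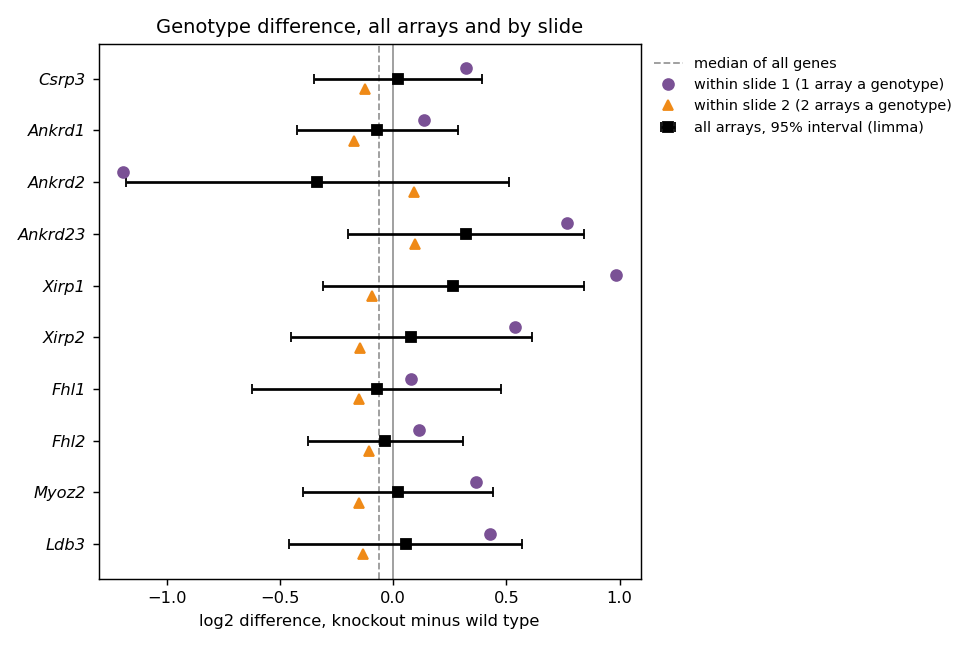
The plot gives for each gene the log2 difference, knockout minus wild type, over all 6 arrays with its 95% interval (black), within slide 1 (purple circles) and within slide 2 (orange triangles), with the solid line at 0 and the dashed line at the all-gene median of -0.06. All 10 intervals include 0, and 9 of 10 circles lie right of 0 while 8 of 10 triangles lie left of it.

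Several of the genes were low or high on the same arrays. Wild-type replicate 1 was the lowest array for 6 of 10 genes (Csrp3, Ankrd1, Ankrd23, Xirp1, Xirp2 and Fhl1), and knockout replicate 2 was the lowest for another 3 (Fhl2, Myoz2 and Ldb3). Knockout replicate 1 was the highest for 5 of 10. Without Ankrd2, the mean deviation of the other 9 genes from their own 6-array means was -0.26 on wild-type replicate 1, 0.15 on knockout replicate 1 and -0.08 on knockout replicate 2. The 24 other Z-disc and titin-anchor genes stood at -0.16, 0.19 and -0.19 on the same arrays.

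Fibroblast markers stood at 0.30 on wild-type replicate 1, -0.38 on knockout replicate 1 and 1.17 on knockout replicate 2, by the same measure over 8 genes. Cardiomyocyte markers, again over 8 genes, ran from -0.20 on knockout replicate 2 to 0.10 on wild-type replicate 2. Ankrd2 was at its highest on wild-type replicate 1 and next on knockout replicate 2. The part of other cell types in these array differences was not tested.

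**Figure D3:**
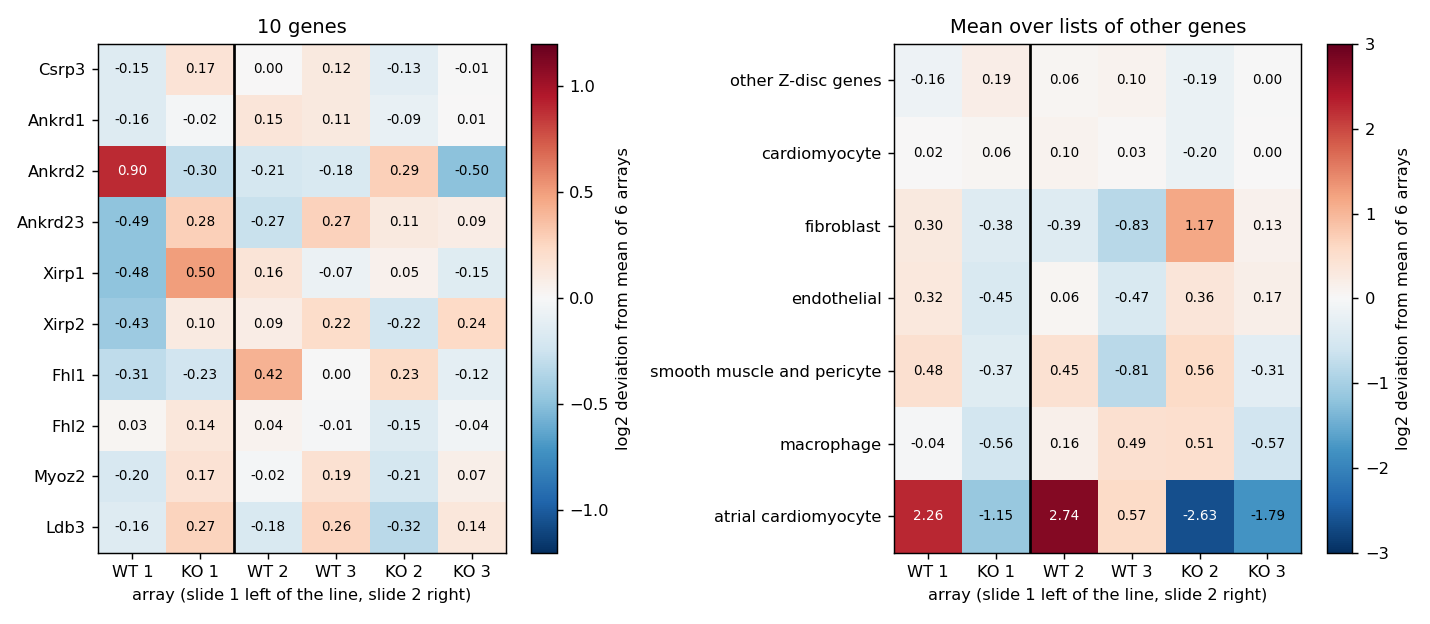
Colours and printed values give the log2 deviation from the mean of the 6 arrays, with slide 1 left of the line. The left panel holds the 10 genes, and the right panel holds means over the other Z-disc genes and over marker lists. The 2 panels have different colour scales. Wild-type replicate 1 is blue for 8 of the 10 genes, Ankrd2 and Fhl2 being the others, and knockout replicate 2 has the highest fibroblast value, 1.17.

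Among the 45 pairs of the 10 genes, 5 had a Pearson r above 0.8 over the 6 arrays and 1 had an r below -0.8. Csrp3 and Myoz2 were the closest (r = 0.96, exact permutation p = 0.0222; Spearman rho = 0.83, exact permutation p = 0.0583), and r was 0.95 without the 2 arrays farthest from the Csrp3 median. Myoz2 and Ldb3 followed (r = 0.94, exact permutation p = 0.0194; rho = 0.89, exact permutation p = 0.0333), with r = 0.97 when 2 arrays were left out. Xirp2 and Ankrd2 ran in opposite directions (r = -0.96, exact permutation p = 0.0111, and rho = -0.83, exact permutation p = 0.0583). Without wild-type replicate 1 and knockout replicate 2, r was -0.43 for that pair. After Benjamini-Hochberg adjustment over the 45 pairs, 0 passed, and the smallest adjusted p was 0.281 for r and 0.637 for rho. The points share their arrays, slides and scaling. Within slides the pairs hold 2 and 4 arrays, too few for a correlation. The r values with 2 arrays left out also rest on 4 arrays, and they decide nothing about which pairs hold.

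**Figure D4:**
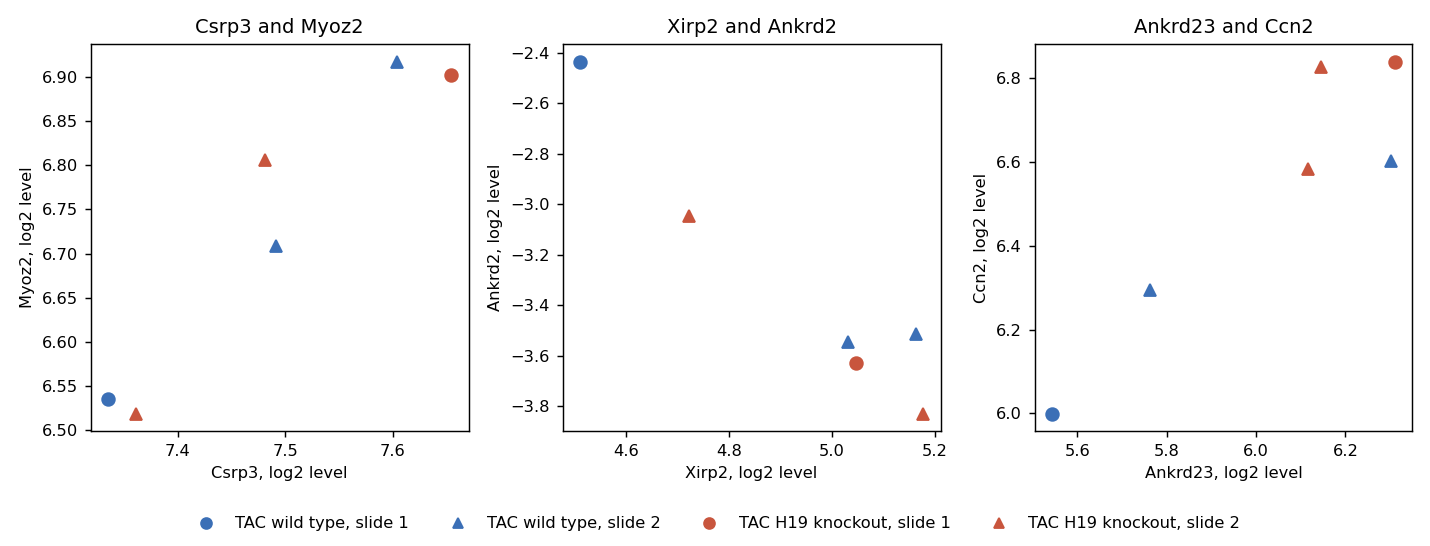
Each point is 1 of 6 arrays (blue wild type, red knockout; circles slide 1, triangles slide 2), and the axes are log2 levels over the 75th percentile of the array. Csrp3 and Myoz2 are high on the same arrays (r = 0.96). Wild-type replicate 1 and knockout replicate 2 are low for Xirp2 and high for Ankrd2. Ankrd23 and Ccn2 share their lowest array, wild-type replicate 1.

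The 250 bases before the RefSeq gene starts (GRCm38.p6) of Csrp3, Myoz2 and Ldb3 are shown because their pairs had r between 0.86 and 0.96, none of which passed the adjustment, and that of Ankrd1 because it holds a repeated TEAD motif. Capitals mark matches to the M-CAT core, the TEAD motif (CATTCC on either strand), to the CArG box of SRF and to the MEF2 site, each with no mismatch and searched on both strands. The windows lie at chr7:48848052-48848301, chr3:123034988-123035237, chr14:34588682-34588931 and chr19:36119845-36120094, all on the minus strand, in the order below.
Csrp3: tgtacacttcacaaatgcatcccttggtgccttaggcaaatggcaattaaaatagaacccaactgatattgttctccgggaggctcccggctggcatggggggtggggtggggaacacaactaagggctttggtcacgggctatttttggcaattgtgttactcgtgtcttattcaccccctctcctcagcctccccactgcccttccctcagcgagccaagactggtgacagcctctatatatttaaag
Myoz2: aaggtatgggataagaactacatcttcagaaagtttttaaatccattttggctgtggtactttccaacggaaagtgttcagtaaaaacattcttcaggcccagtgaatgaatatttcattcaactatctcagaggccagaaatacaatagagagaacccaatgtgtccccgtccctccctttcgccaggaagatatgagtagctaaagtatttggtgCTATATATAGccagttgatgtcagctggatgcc
Ldb3: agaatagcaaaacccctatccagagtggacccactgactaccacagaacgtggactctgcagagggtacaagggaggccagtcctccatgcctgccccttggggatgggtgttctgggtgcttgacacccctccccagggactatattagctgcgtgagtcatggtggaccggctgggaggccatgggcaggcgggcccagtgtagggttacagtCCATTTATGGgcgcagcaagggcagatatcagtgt
Ankrd1: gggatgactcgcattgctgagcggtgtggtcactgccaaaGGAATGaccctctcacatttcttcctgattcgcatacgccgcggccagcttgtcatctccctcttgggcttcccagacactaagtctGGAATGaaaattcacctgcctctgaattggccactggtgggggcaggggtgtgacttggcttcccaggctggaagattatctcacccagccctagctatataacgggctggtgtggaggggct

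RefSeq windows matched 9 of the 10 genes, with 14 starts in all. Ankrd1 held 2 M-CAT cores, at 210 to 205 and 123 to 118 bases before its start; 12.6% of 32851 windows held at least 1 and 1.02% held 2 or more. Ankrd23 held 1 core in 1 of its 2 windows. Ldb3 held a CArG box at 35 to 26 bases before its start. CArG boxes were in 5 of the 14 windows, those of Fhl1, Fhl2 and Ldb3, and in 1.47% of all windows; the 2 windows of Ldb3 overlap and share 1 box. Myoz2 held a MEF2 site at 33 to 24 bases before its start, a motif found in 2.92% of all windows and also in Fhl2 and Xirp2. The Csrp3 window held none of the 3 motifs in these letters. The 3 motifs share no bases in the windows shown.

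The genes around the 10 were read from lists fixed by function, and 0 of their members passed the adjusted threshold in either direction. Of 24 other Z-disc and titin-anchor genes, all tested, 13 were above 0 and 11 below, with a median of 0.02 and a range from -0.17 to 0.14. The smallest p values there belonged to Synpo2, myopodin, at -0.17 (adjusted p = 0.922), Synpo2l at 0.13 and Pdlim5, the enigma homolog, at -0.13. Synpo2 and Pdlim5 were above 0, at 0.26 and 0.30, under median scaling of the arrays. The set includes titin, alpha-actinin 2, telethonin and desmin, and all of it lay within the range that holds the genes between the 5th and 95th percentile of the whole table (-0.82 to 0.34).

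Of 11 paralogs of the 10 genes, 9 were tested, and Fhl4 and Fhl5 were not. The differences were above 0 for 7 and below 0 for 2, with a median of 0.11. Myoz3, calsarcin-3, read -2.74, -3.34 and -3.39 in wild type and -3.81, -3.79 and -3.57 in the knockout, so the genotypes did not overlap. Its signal was dim and was not well above background on every array. The dimmest signal still well above background ran from -4.61 on knockout replicate 2 to -3.48 on wild-type replicate 1. The separation for Myoz3 thus lies near the detection limit. The difference for Myoz3 was -0.57 (SE 0.21; adjusted p = 0.622), against 0.02 for Myoz2, a bright gene. For Myoz3 it was -0.16 with quantile normalization, -0.15 with the authors' deposited values, -0.34 with normexp and -0.36 without wild-type replicate 1. Without wild-type replicate 3 the difference for Myoz3 was -0.69. Pdlim2 (0.58, SE 0.47) and Pdlim7 (0.46, SE 0.43) had the next smallest p, and both ran down on slide 1 (-0.76 and -0.66) and up on slide 2 (1.25 and 1.02). Without knockout replicate 2 they were at 0.10 and 0.038, and without knockout replicate 1 at 0.92 and 0.74. Leaving out wild-type replicate 1 gave 0.91 and 0.74, and leaving out wild-type replicate 3 gave 0.35 and 0.17.

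The actin-sensing pathway of SRF with its MRTF and myocardin cofactors acts on many sarcomeric and cytoskeletal genes. Of its 15 listed genes 11 were above 0 and 4 below, with a median of 0.03. Cnn2, calponin 2, read 2.10, 1.94 and 2.10 in wild type and 2.26, 2.34 and 2.22 in the knockout, without overlap, a difference of 0.22 (SE 0.14; adjusted p = 0.745). Srf itself differed by 0.21 (SE 0.19; adjusted p = 0.903) and Actb, cytoplasmic beta-actin, by 0.17 (SE 0.15; adjusted p = 0.904).

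YAP and its TEAD partners form a pathway that responds to mechanical tension, with Ccn1 and Ccn2 as standard targets. Of 16 listed genes, 14 were above 0 and 2 below, with a median of 0.15, beside 36.3% of all genes above 0 and their median of -0.06. By mean deviation the list was highest on knockout replicate 2, at 0.30, where fibroblast markers stood at 1.17, and it was at 0.02 and -0.03 on the other knockout arrays and between -0.14 and -0.06 on the wild-type arrays. The part of fibroblasts in this was not tested. Lats1, a kinase that restrains YAP, read -2.63, -2.81 and -2.50 in wild type and -2.35, -1.60 and -2.20 in the knockout, a difference of 0.60 (SE 0.23; adjusted p = 0.627) without overlap. It was 0.37 without knockout replicate 2 and 0.32 with normexp background correction. With quantile normalization it was 0.85, with the authors' deposited values 0.86 and with median scaling of the arrays 1.02. Ccn2, connective tissue growth factor, read 6.00, 6.29 and 6.60 in wild type and 6.84, 6.83 and 6.58 in the knockout, a difference of 0.45 (SE 0.20; adjusted p = 0.631), which was 0.30 without wild-type replicate 1. Ccn1 read 5.25, 5.25 and 6.05 in wild type and 6.30, 5.80 and 5.67 in the knockout, a difference of 0.41 (SE 0.28; adjusted p = 0.788), and between 0.22 (without knockout replicate 1) and 0.67 (wild-type replicate 3 left out).

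By profile over the 6 arrays, Ccn1 (r = 0.93), Ccn2 (r = 0.92) and Pdlim1 (r = 0.81) were the 3 closest to Ankrd23 among the 76 listed genes tested. These are the highest of 76 values and are given as a description. Without the 2 arrays farthest from the Ankrd23 median, r was 0.94 for Ccn1, 0.17 for Ccn2 and 0.28 for Pdlim1. The arrays left are too few for a correlation, so these values do not rank the 3 genes.

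Kinases, phosphatases, proteases and ubiquitin ligases linked to the Z-disc gave 8 genes above 0 and 4 below of 12, with a median of 0.04. Capn1, calpain 1, read -2.10, -1.91 and -2.17 in wild type and -1.75, -1.80 and -1.78 in the knockout, without overlap. The difference was 0.28 (SE 0.14, adjusted p = 0.657). It was 0.13 with normexp, and 0.42 both with quantile normalization and with the authors' deposited values. Sqstm1, the autophagy receptor p62, differed by -0.11 (SE 0.18; adjusted p = 0.9997) and was at 0.32 under median scaling of the arrays.

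The fibroblast, macrophage and atrial marker lists had the medians farthest from 0 of all the lists, with 0 of their genes called. All 8 fibroblast markers were above 0 (median 0.59), from 0.41 to 0.93, and the smallest p was that of Dcn, at 0.64 (adjusted p = 0.627). Dcn differed by -0.02 on slide 1 and 0.97 on slide 2. By mean deviation the fibroblast list was higher in wild type on slide 1 (0.30 on wild-type replicate 1, -0.38 on knockout replicate 1). It was highest on knockout replicate 2, at 1.17. All 6 macrophage markers were below 0 (median -0.43). All 3 atrial markers were lower in the knockout without overlap (median -3.51, and Sln at -4.84 with adjusted p = 0.557). Of all genes 10.5% had no overlap, in either direction. Cardiomyocyte markers had a median of -0.09, with 2 of 8 above 0, and 2 of 8 were lower in the knockout without overlap. The medians were 0.05 for endothelial markers and -0.12 for smooth muscle and pericyte markers. Of 7 skeletal muscle markers 3 were tested (median -0.05), and 3 of the 7 were well above background on no array. The part of these cell types in the values of the 10 genes was not tested.

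**Figure D5:**
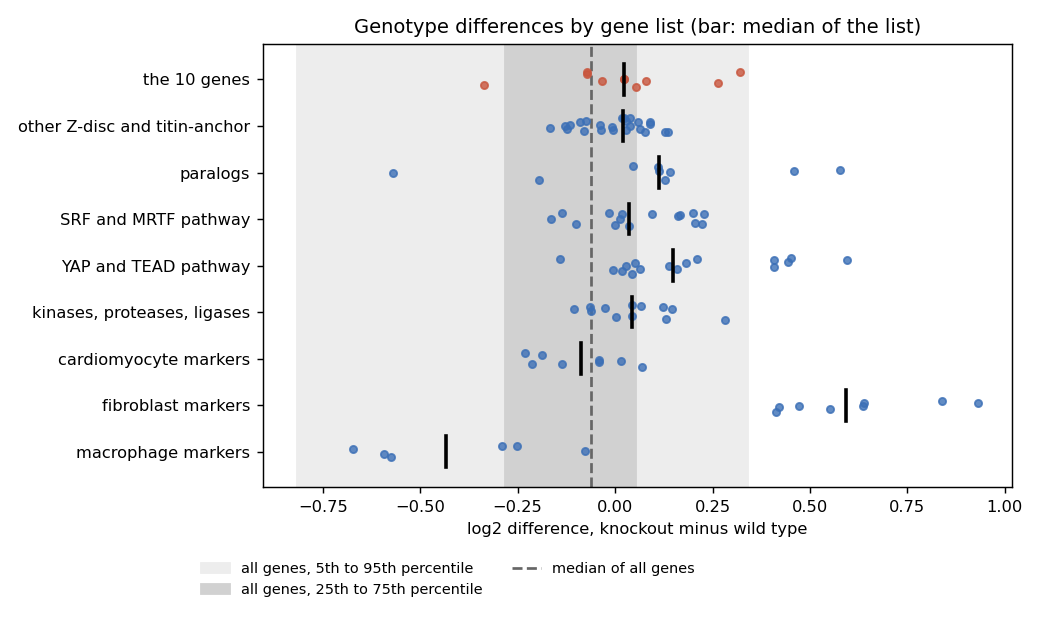
Points are genes, placed by their log2 difference, knockout minus wild type; black bars are medians of lists, and grey bands mark the middle ranges of all genes. The 10 genes (red) run from -0.34 to 0.32, and the 8 fibroblast markers from 0.41 to 0.93.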

How the data were processed

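RNA of cardiomyocyte fractions was hybridised to 1-colour Agilent mouse arrays, 3 per genotype, per the labels' protocols. Per the file headers, Agilent Feature Extraction 10.7.3.1 wrote a background-subtracted processed intensity for each spot, without normalization between arrays, and mm9 probe positions. A second table deposited by the authors gives linear intensity values whose ranks equal those of the scanner's values (correlation 1). At each rank its 6 arrays differ by at most 0.0327%, so it was quantile-normalized; no tool is named for it.

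The processed intensity was put on a log2 scale and reduced by the array's 75th percentile over non-control spots. The 3671 control spots of an array and outlier spots did not enter. A probe's spots were averaged, which dropped 32 of 55681 probes that lacked a usable spot on some array. Of the rest, 29990 were well above background on 3 or more of 6 arrays and were kept, and a gene was read from its brightest probe on average. All 10 genes and all 12 of their probes passed, 9 genes well above background on all 6 arrays. Each of the 12 probes has 1 spot an array; for Ankrd23 and Ldb3 both probes had the same sign. Gene names came from RefSeq (GRCm38.p6) for 26425 probes through an accession, for 3988 through a symbol and for 826 through a synonym; 24442 probes stayed as named in the files. RefSeq added 0 probes for the 10 genes. Where a probe lies in exons or UTRs was not analysed here.

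Genotypes were compared as knockout minus wild type in limma 3.58.1 under R 4.3.3, by lmFit and eBayes, at 0.05 after Benjamini-Hochberg adjustment over the 21888 genes. Adjusted p-values are from this fit, except that those of the second probes of Ankrd23 and Ldb3 are from the same fit over 29990 probes, and those of alternatives and of the slide term are from their own fits over all genes. The bound for H19 compares the wild-type mean with the dimmest signal still well above background on each knockout array, or with H19's own where that was higher. Correlations have exact two-sided permutation tests over the arrays. The fit was tested on simulated data with independent normal errors, which held no slide effects and no shifts shared by the genes of an array.

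Named are the 10 genes with all probes, up to 3 genes of smallest p in each list (1 such gene is not reported here), the 3 listed genes closest to Ankrd23, which has the smallest p of the 10, and H19. The genes and lists were chosen with earlier results of these data known. The alternatives changed the background correction (normexp, offset 50), the scaling between arrays, the source of the values, the filter on dim probes, the summary over probes, the blocks (slide, replicate number), the variance prior and the weights of arrays, or left out 1 array. A 75th percentile over probes and the slide by genotype term were added after the data were seen.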

Additional observations from a re-analysis of the deposited data

How the results depend on the processing

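In 19 alternatives to the fit, 0 of the 10 genes tested were called (9 tested when probes had to be well above background on all 6 arrays, which left out Ankrd2). In the 18 of them with a fit over probes, 0 of the 12 probes were called, 11 being tested under that filter, and the lowest adjusted p of a gene was 0.148 (Ankrd23 without wild-type replicate 3). Of 189 values of the 10 genes under these alternatives, 167 kept their direction and 22 did not, and Ankrd23 kept its own in all 19. At an unadjusted p under 0.05 (limma), 1 of 10 genes passed with median scaling and 1 without wild-type replicate 3. The shares of all genes at that threshold in those fits are not given here. The count of 7 genes called over the whole table was 3 with quantile normalization, 3 with the authors' deposited values, 118 with median scaling (arrays scaled to the median of their probes), 2 with the 75th percentile of probes detected on all arrays, 1 with no filter on dim probes, 1 with slide as a block and between 1 and 10 when 1 array was left out. With the added 75th percentile taken over probes, that count was 8 genes. With replicate number as a block 1 gene was called. The deviations of same-numbered arrays from their group means had correlations of -0.217, -0.051 and 0.037 over genes. No array correlated best with its own number. So few arrays cannot show whether the number marks paired samples, and slide 1 held replicate 1 of both genotypes. The median over the 10 genes was 0.45 with median scaling, 0.34 within slide 1, -0.13 within slide 2 and -0.025 with array weights; it ran from -0.057 (without knockout replicate 1) to 0.11 (without knockout replicate 2) when 1 array was left out. Under median scaling, Ankrd1 was at 0.35, Ankrd2 at 0.090, Fhl1 at 0.35, Fhl2 at 0.39, Synpo2 at 0.26, Pdlim5 at 0.30 and Sqstm1 at 0.32. Ankrd2 was at 0.032 with quantile normalization and 0.036 with the authors' values, Fhl2 at 0.0016 with normexp, and Xirp1 at -0.057 with array weights (fitted gene by gene). The cause was not tested. Leaving out 1 array turned the sign of Csrp3 (-0.056 to 0.091), Ankrd2 (-0.56 to 0.030), Xirp2 (-0.12 to 0.21), Myoz2 (-0.071 to 0.13), Ldb3 (-0.067 to 0.23), Fhl1 (-0.24 to 0.12), Fhl2 (-0.11 to 0.033) and Sqstm1 (-0.20 to 0.0052). The dim signal of Ankrd2 and the number of arrays limit the precision.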
